A study of Bos taurus with 12 samples.

Results

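Shared N6-methyladenosine (m6A) peaks in last exons are the sites where a methylated stretch of RNA was found both in bovine myoblasts and in myotubes and where the myotube peak was annotated to the final exon of a transcript. Members were chosen by peak position and by the presence of a call in both lists: a single myoblast peak and a single myotube peak shared 1 base or more of exon on 1 strand, with neither touching another peak of the other list, and with the myotube peak labelled as exon N of N. There were 604 such pairs in 557 genes, out of 10239 shared pairs in 7833 genes (5.9% of the pairs). The other shared pairs were annotated to 3′ UTRs (5146), 5′ UTRs (1882) and exons before the last (2607). A peak labelled as UTR was not a member, even where that UTR belongs to a last exon. Shares of last exon pairs therefore count this label, not all shared peaks that lie in last exons. Members were thus selected on the measured IP over input signal that makes a peak, so the presence of enrichment in both conditions is no finding.

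The cells were primary myoblasts from longissimus dorsi muscle of a newborn Qinchuan animal and carried no transgene or knockout. The GM group was proliferating myoblasts kept in growth medium with fetal bovine serum and harvested short of confluence. The DM group was the same cells after 4 days in differentiation medium with horse serum. Each group had 3 input libraries and 3 m6A immunoprecipitated (IP) libraries, 12 in all, and the peak calls pooled the 3 cultures of a group. All cultures came from 1 source of cells, so p-values measure the spread between these cultures and not between animals. In such bulk RNA, fewer cells of a type and less RNA per cell cannot be told apart.

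m6A is written onto nascent mRNA by the METTL3 and METTL14 complex and is read by YTH domain proteins, which can hasten decay of the mRNA or change its translation. Its sites are known to gather in long internal exons, around stop codons and in last exons, where few exon junctions lie nearby. Genes without introns consist of a last exon only, and many of them encode small regulators such as transcription factors, receptors and secreted peptides.

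The labels of the groups were checked against the input libraries. Of 8 myotube markers, 6 were higher in DM (limma on log2(FPKM + 1), Benjamini-Hochberg adjusted p under 0.05 and fold over 1.5 on that scale), and of 5 myoblast markers 3 were lower. The 7 fibroblast markers were all detected, with a summed level of 13600 to 13800 FPKM in GM and 13900 to 14700 in DM. By limma 0 were called, with 2 higher and 1 lower at an unadjusted p under 0.05. These were DCN (0.33, limma adjusted p = 0.0032), PDGFRA (0.26, adjusted p = 0.0053) and TCF21 (-0.23, adjusted p = 0.046). They passed the adjusted p but were under 1.5-fold on that scale. The part of fibroblast markers in the results below was not tested. The 5 adipocyte markers summed to 1.21 to 1.36 FPKM in GM and 1.94 to 2.66 in DM, with ADIPOQ and LEP under 0.5. Sums of the endothelial list were under 0.7 FPKM in every library, with CDH5, PECAM1, TEK and VWF each under 0.5. The immune list summed to 1.16 to 1.65 FPKM in GM and 0.944 to 1.98 in DM, and the Schwann cell list to 10.1 to 10.7 and 9.12 to 10.2. FPKM over all genes summed to between 386000 and 434000 per library.

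The last exons of this class were mostly short of introns. In 233 of the 604 pairs the DM peak lay in exon 1 of 1, in 206 it lay in the last of 2 to 4 exons, in 73 in the last of 5 to 9 and in 92 in the last of 10 or more. The pair with the most exons was in ANAPC1, the scaffold of the anaphase-promoting complex, with its peak in exon 47 of 47 and a fold enrichment (IP over input in the peak) of 2.37 in GM and 2.17 in DM. The DM peak was a single block in 565 pairs (93.5%), against 42.5% of all shared pairs. The GM peak of the pair was itself in a last exon in 546 pairs, in another exon in 36, in a 3′ UTR in 15 and in a 5′ UTR in 7. In 25 pairs the exon named in the annotation belonged to another gene than the one the peak was assigned to, so that an exon count of 1 of 1 does not describe the named gene there (for example KLHL32, IQGAP1, CD47 and the 3 pairs of ZNF428).

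Host genes were also poorly named and weakly expressed. Of the 557 genes, 198 (35.5%) carried only an Ensembl identifier, against 7.69% of the host genes of all shared pairs and 2.41% of those with a shared 3′ UTR peak. A further 19 were annotated as small RNA genes (miRNA or Rfam entries). Of the 557, 334 matched a RefSeq gene by symbol, 328 of them protein coding. The median mRNA level of the host genes was 1.68 FPKM over the 6 input libraries, against 7.21 for all host genes of shared pairs, 8.53 for 3′ UTR pairs and 10.5 for 5′ UTR pairs. Peaks were shorter than elsewhere, with a median exon length of 268.5 bases in GM and 361 in DM, against 416 and 537 over all shared pairs. The DM peak ended exactly at the annotated transcript end in 272 pairs (45.0%), a share between those of 3′ UTR pairs (51.0%) and of pairs in earlier exons (18.4%). In 69 pairs the DM peak had the same length as the annotated transcript.

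The pairs were unevenly spread over the genome. On chromosome 18, 79 of 672 shared pairs (11.8%) were labelled as last exon, whereas on chromosome 7 it was 14 of 626 (2.24%). Most genes (519) held 1 pair, 30 held 2 and 8 held 3 or more. The imprinted zinc finger gene PEG3 held 4, all in exon 5 of 5, and they went in both directions. The peak at chr18:64105418-64105838 (ARS-UCD1.2, minus strand) went from a fold enrichment of 3.39 in GM to 5.43 in DM, while that at chr18:64107607-64108267 went from 2.14 to 1.72. GEMIN4, a member of the SMN complex that assembles spliceosomal particles, held 3 pairs within 1.5-fold of each other between conditions, the most enriched at 3.71 in GM and 3.30 in DM. The 3 pairs of KRBA1, which encodes a KRAB domain protein, were all lower in DM, from 4.20 to 2.60, from 4.51 to 2.25 and from 3.73 to 2.42. TIGD5, a gene derived from a transposase, held 3 pairs whose values moved by at most 0.06 on the log2 scale.

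Enrichment lay close to that of all shared pairs in level and was less alike between conditions. The median fold enrichment of the 604 pairs was 3.53 in GM and 3.81 in DM, against 3.42 and 3.60 over all shared pairs, 3.75 and 3.96 in 3′ UTRs, 3.51 and 3.83 in 5′ UTRs and 2.69 and 2.80 in earlier exons. The median log2 ratio of DM over GM was 0.07, the same as for all shared pairs, with quartiles at -0.33 and 0.47 and extremes at -2.82 and 3.29. Fold enrichment was over 1.5-fold higher in DM in 117 pairs (19.4%, background 14.2% of all shared pairs) and over 1.5-fold lower in 86 (14.2%, background 10.8%), so that 33.6% changed in either direction against a background of 25.0%. Centred on the median of all shared pairs, the split was 95 higher and 105 lower, so the excess of higher over lower pairs depended on the centring. Across the pairs, r of log2 fold enrichment between GM and DM was 0.69 over the 604 sites and 0.77 over all 10239, where the sites share libraries and normalization. With 1 pooled value per group a peak has no replicate error, and these counts carry no test.

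**Figure D1:**
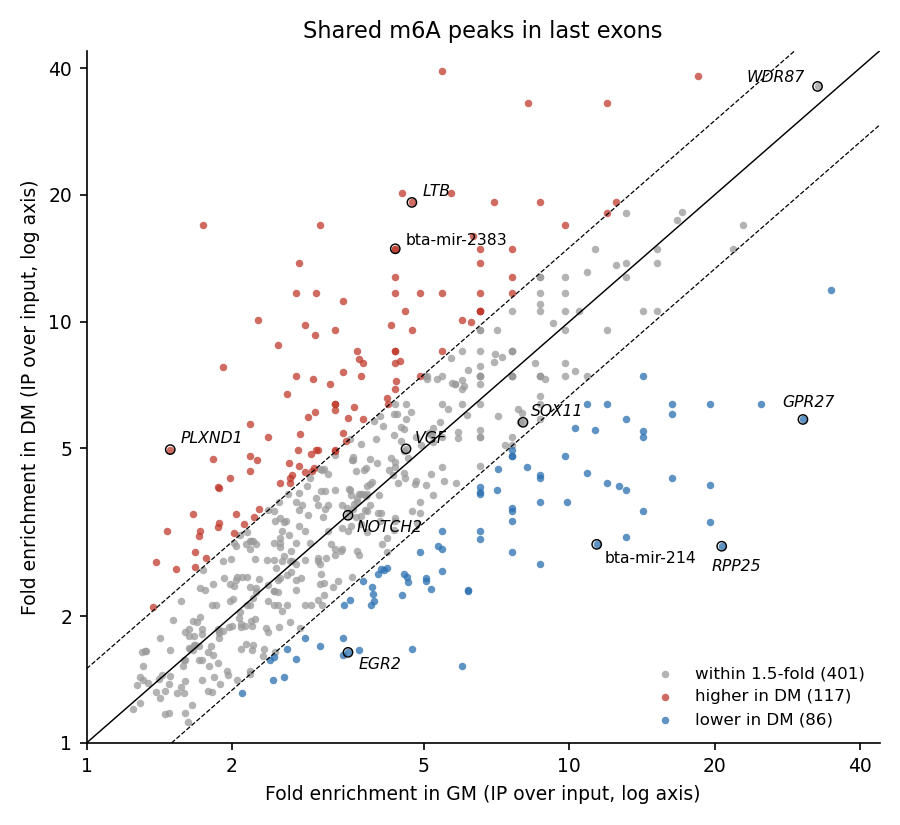
Fold enrichment of IP over input in GM (x axis) and DM (y axis), both on log axes, for the 604 shared pairs in last exons. Each point is a pair, the solid line is equality and the dashed lines 1.5-fold. The 117 pairs higher and 86 pairs lower in DM lie outside the dashed lines, and above a fold enrichment of about 4 many points stand in rows and columns at repeated values.

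The share of changed pairs followed the mRNA level of the host gene. Of 179 pairs in genes under 0.5 FPKM, 46.4% changed, against 50.4% of all shared pairs in such genes. Between 0.5 and 5 FPKM it was 36.0% of 267 pairs, against 33.4%, and at 5 FPKM or more 14.7% of 156 pairs, against 16.4%. The shares of last exon pairs and of all shared pairs were thus close within each range, and 74.1% of the last exon pairs with a value, against 39.5% of all, were in genes under 5 FPKM.

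Many of the fold enrichment values were whole multiples of 1 number. Between 3 and 10, 32.6% of the 313 GM values of last exon pairs fell within rounding (0.005) of a multiple of 1.089, and 22.0% of the 314 DM values fell on a multiple of 1.065. For all shared pairs these were 16.7% and 15.5%, and for 3′ UTR pairs 13.2% and 13.3%, whereas other steps of this size caught a median of 0.807% and 0.828% of values. Pairs with at least 1 value on a step numbered 196. Their host genes had a median of 0.314 FPKM, their median fold enrichment was 6.53 in GM and 6.53 in DM, and 52.0% of them changed over 1.5-fold, against 53.0% of all shared pairs with a value on a step. The 408 pairs with no value on a step had host genes at a median of 3.21 FPKM, median enrichments of 2.87 and 3.0, and 24.8% changed, against 17.9% of all shared pairs with no value on a step. Host genes of the latter had a median of 9.06 FPKM, so the 2 sets differed in mRNA level as well. Among these 408 pairs, 58 were higher in DM (14.2%) and 43 lower (10.5%), against 10.5% and 7.38% of all shared pairs with no value on a step.

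**Figure D2:**
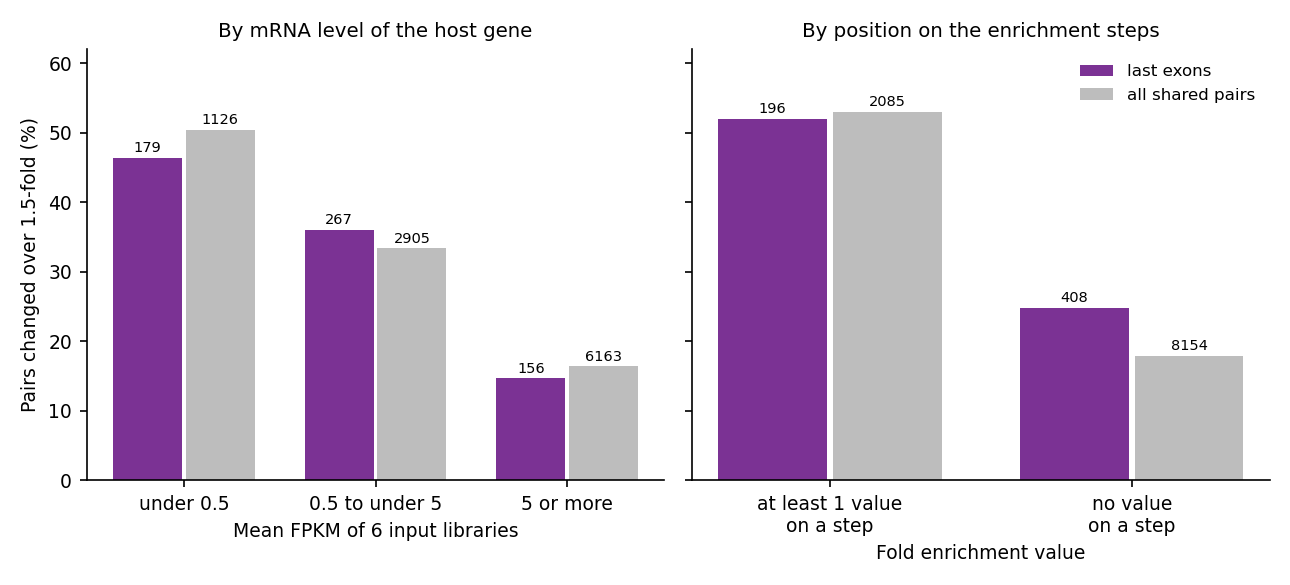
Percent of pairs whose fold enrichment differed by over 1.5-fold between GM and DM, by mean FPKM of the host gene (left) and by whether a fold enrichment value fell on a whole step (right), for last exon pairs (purple) and all shared pairs (grey), with the number of pairs above each bar. The share falls from 46.4% to 14.7% of last exon pairs with rising mRNA level, close to the grey bars in each range, and is 52.0% with a value on a step and 24.8% without, beside 53.0% and 17.9% of all shared pairs.

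The direction of change moved with peak length. Where the DM peak was the longer one (353 pairs), 25.2% were higher in DM and 7.93% lower. Where the GM peak was longer (173 pairs), 10.4% were higher and 27.2% lower. In the 78 pairs of equal length the shares were 12.8% and 14.1%. Over all shared pairs the shares were 17.4% and 6.45% for longer DM peaks, 7.41% and 23.2% for longer GM peaks and 9.01% and 11.2% for equal length. By structure, exon 1 of 1 pairs in genes with no symbol were higher in 28.0% of 100 pairs and lower in 7.00%, whereas those in genes with a symbol were higher in 12.1% of 116 pairs and lower in 16.4%. In last exons of genes with 10 or more exons, 14.1% were higher and 18.5% lower. The background over all shared pairs was 14.2% higher and 10.8% lower. These subsets also differed in peak length, the DM peak being longer in 68.0%, 55.2% and 43.5% of their pairs in the order given. Host genes of the 2 sets of exon 1 of 1 pairs had medians of 1.51 and 3.21 FPKM. Structure, naming, length and mRNA level were not separated here.

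Pairs at the edge of the overlap rule are given once. ABI2 (1.51 in GM and 1.96 in DM), XKR8 (1.92 and 2.71) and SLITRK5 (7.62 and 3.37) entered with 1 shared base. Just outside, the GM and DM peaks of COL7A1 (19.6 and 17.0) were 22 bases apart, and those of PARS2 (6.53 and 5.32) and FGF9 (8.71 and 2.46) 28 bases apart.

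The sites with the largest ratios and the highest enrichment, and those named for their combination of m6A and mRNA direction, were taken from the 354 well matched pairs, with a false discovery rate under 0.05 in both lists and 50% or more of each peak covered by the other. Of these, 14.1% were higher in DM and 12.4% lower, against backgrounds of 10.2% and 9.93% of the 7512 well matched pairs of the series. Median mRNA of the host genes was 2.92 FPKM for the 354 pairs and 8.53 for the 7512. Sites named as members of a gene list or for the mRNA of their host did not have to be well matched. The pairs of FOXM1, RAD54L, C4orf54, ZNF580, ZKSCAN2, NOG, COL8A1 and PCDHGA3 overlapped over less than 50% of the longer peak, and those of CLSPN and DCHS2 and 1 pair of ASXL3 also fell short, so their GM and DM values rest partly on different stretches or on a weaker call.

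The 10 largest rises included weakly expressed and unnamed genes as well as well detected ones. Fold enrichment in the intronless ENSBTAG00000054588 (chr23:28925617-28926246, plus strand, the whole transcript) was 5.44 in GM and 39.4 in DM, with mRNA at 0.293, 0.539 and 0.314 FPKM in GM and 0.104, 0.210 and 0.0973 in DM. In LTB, the membrane anchor of lymphotoxin, it was 4.72 and 19.2, with mRNA at no more than 0.334 FPKM in any library. ENSBTAG00000052361 (chr5:57090764-57091265, exon 1 of 1) was better expressed. Its fold enrichment was 8.23 in GM and 33.0 in DM, and its mRNA was 6.53, 7.05 and 9.01 FPKM in GM against 4.46, 3.52 and 3.28 in DM. All 3 DM libraries lay below all 3 GM libraries, a fall by 0.84 on the log2(FPKM + 1) scale (SE 0.128, limma, adjusted p = 0.0011). PLXND1, a semaphorin receptor, had its peak in exon 35 of 35 (chr22:56182337-56182576), at 1.49 in GM and 4.97 in DM with neither value on a step. Its mRNA was 7.55, 7.79 and 8.09 FPKM in GM and 5.63, 6.11 and 5.38 in DM, a difference of -0.39 (SE 0.0643, limma adjusted p = 0.0016) that did not reach 1.5-fold. TMEM8B, in exon 13 of 13, went from 2.49 to 8.79.

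The 10 largest falls were likewise mixed in the mRNA level of the host. RPP25, a protein subunit of RNase P, had 20.7 in GM and 2.93 in DM over the same 271 bases (chr21:33753525-33753795), and its mRNA was at most 0.543 FPKM in any library. GPR27, an orphan G protein-coupled receptor, had 30.5 and 5.86, and the synaptic adhesion gene NLGN1 25.0 and 6.39. Both were under 0.5 FPKM in all 6 libraries. ARTN, a ligand of the GDNF family, was better covered, at 12.7 in GM and 4.08 in DM over an identical 347 bases, with mRNA at 1.22, 1.48 and 1.54 FPKM in GM and 0.828, 0.947 and 0.900 in DM. The mRNA difference of ARTN was -0.35 (SE 0.083, limma adjusted p = 0.01), under 1.5-fold on the log2(FPKM + 1) scale. Without the added 1, its mean FPKM of 1.41 in GM and 0.892 in DM differed by over 1.5-fold.

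The sites most enriched in both conditions were mostly in weakly expressed genes. WDR87, which encodes a WD repeat protein, had 32.7 in GM and 36.2 in DM in exon 6 of 6, with mRNA between 0.109 and 0.141 FPKM. Of the 10 pairs with the highest geometric mean of both values, 8 were in genes under 0.5 FPKM on average. The exceptions were ENSBTAG00000049459, whose peak covered the whole transcript of 1077 bases at 17.1 and 18.2, and ENSBTAG00000052361. In the whole set, 21 pairs were above 10 in both lists. Among them was ENSBTAG00000050626, in exon 2 of 2 at 12.5 in GM and 13.6 in DM, with mRNA at 51.6, 53.0 and 44.9 FPKM in GM and 83.3, 73.8 and 79.9 in DM (log2 change 0.66, SE 0.0756, limma adjusted p = 0.00025, and 0.58, under 1.5-fold, without GM culture 3).

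Small RNA genes made up 19 pairs, 15 of them with equal peak length in both lists. They are stretches of 65 to 239 bases or parts of longer peaks, 10 of which also overlapped another gene of the expression table on the same strand, so their values cannot be ascribed to the small RNA itself. At bta-mir-214, a microRNA precursor on the strand opposite another gene, fold enrichment was 11.4 in GM and 2.96 in DM, and at bta-mir-2383 it was 4.36 and 14.9. Of the 14 small RNA host genes tested, 0 were called for mRNA by limma (background 4.89% higher and 6.88% lower), and 3 were lower at an unadjusted p under 0.05.

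Zinc finger genes, taken by symbol (ZNF, ZFP, ZBTB, ZKSCAN), formed the largest of the gene lists among the hosts. They were 39 of the 557 host genes (7.00%), against 180 (2.30%) of the host genes of all shared pairs, with 42 pairs. KRAB zinc finger proteins carry their finger array in a single long last exon, and most act as repressors of transposable elements and genes. Membership in this list rests on the symbol alone, and the presence of a KRAB domain was not checked. Of the 42 pairs, 6 were higher in DM (14.3%, background 14.2%), 6 lower (14.3%, background 10.8%) and 30 within 1.5-fold, with a median log2 ratio of 0.15 against 0.07 over all shared pairs. ZNF518B had its peak over the full 3237 bases of exon 1 of 1 (chr6:105484771-105488007, minus strand), at 5.03 in GM and 7.42 in DM, with mRNA at 7.00, 6.88 and 6.87 FPKM in GM and 6.99, 6.39 and 6.68 in DM. ZNF281 covered 2443 bases at 5.32 and 7.33, and ZNF623 1455 bases at 7.03 and 8.37. The largest rise without a value on a step was that of ZKSCAN2, from 3.20 to 7.10, in an exon annotated to another gene, and the largest fall that of ZNF580, from 5.99 to 1.52, where the DM peak was 145 bases long and the GM peak 346. Of the 34 zinc finger host genes tested, 0 were called for mRNA by limma in either direction, against 8 higher and 3 lower at an unadjusted p under 0.05. An adjusted p under 0.05 was reached by 6, each under 1.5-fold on the log2(FPKM + 1) scale. ZNF623, ZNF660, ZNF580, ZNF274 and ZNF181 were higher and ZFP64 lower. The largest difference among the 34 was that of ZNF3, 0.74 (SE 0.284, limma adjusted p = 0.069). Its GM libraries at 7.79, 3.07 and 3.06 FPKM overlapped the DM libraries at 6.27, 8.84 and 8.39. The median mRNA change of the 34 was 0.10. Of all 298 genes of this family tested, 3 were higher in DM and 1 lower. The background for these mRNA counts was 4.89% higher and 6.88% lower of all 12302 genes tested.

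**Figure D3:**
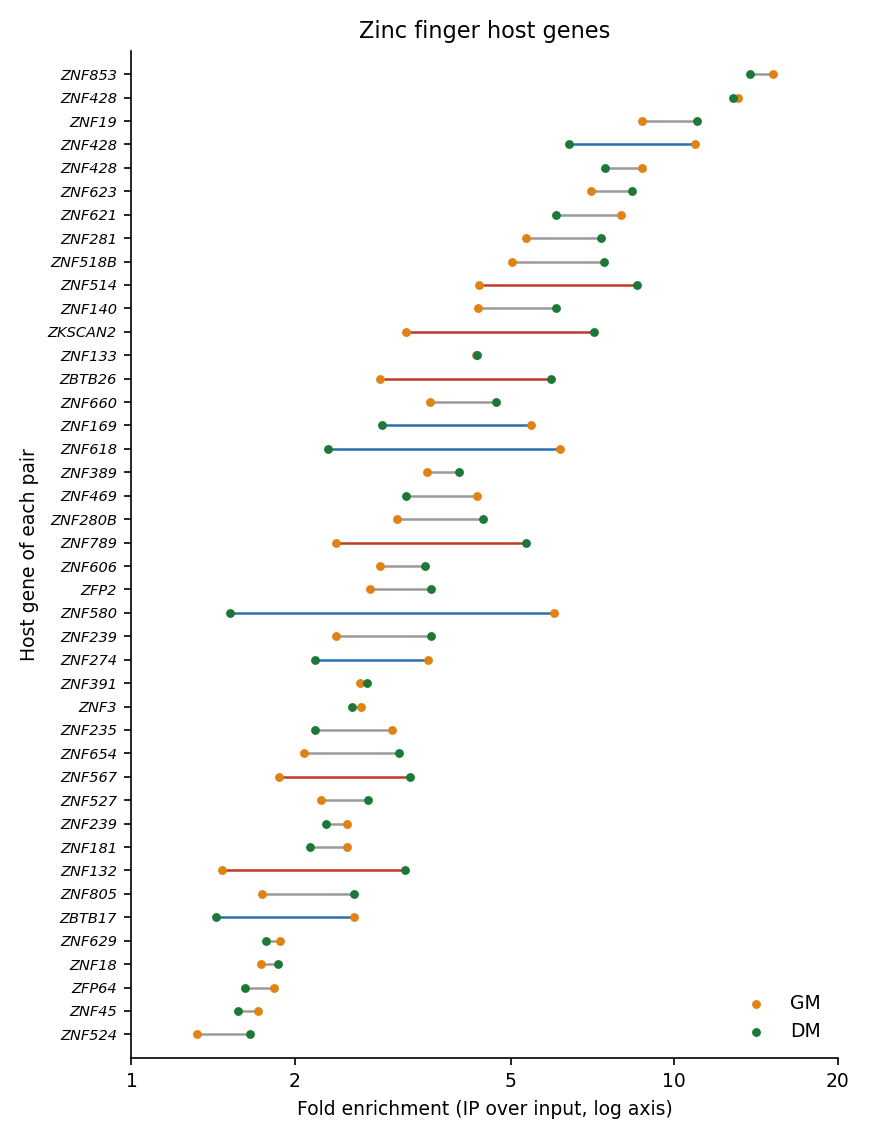
Fold enrichment (log axis) in GM (orange) and DM (green) for the 42 shared last exon pairs of 39 zinc finger genes, ordered by geometric mean, with 1 row per pair. Lines join the values of a pair and are red where DM was over 1.5-fold higher (6 pairs), blue where it was over 1.5-fold lower (6 pairs) and grey otherwise (30 pairs).

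Other families of transcription factors followed. The homeobox, SOX, FOX and IRX list held 7 host genes with 9 pairs, 3 of them higher, 3 lower and 3 within 1.5-fold. Over all shared pairs, 14.2% were higher and 10.8% lower. The 2 neighbouring pairs of FOXC2 went opposite ways, from 6.53 to 4.05 and from 6.53 to 10.6, in a gene under 0.3 FPKM in every library. SOX11, an SRY-box transcription factor, had a peak over its entire transcript of 1356 bases (chr11:90953818-90955173, minus strand, exon 1 of 1), at 8.02 in GM and 5.77 in DM. Its mRNA was 7.36, 7.59 and 10.9 FPKM in GM and 13.7, 12.4 and 14.6 in DM. The groups did not overlap. On the log2(FPKM + 1) scale, the rise of 0.62 (SE 0.132, limma adjusted p = 0.0063) fell below 1.5-fold without GM culture 1 (0.52), GM culture 2 (0.54) or DM culture 3 (0.57). In SOX9, a regulator of cartilage formation, the peak in exon 4 of 4 went from 4.72 to 9.58, the DM value lying on a step. The paper lists a different exon peak of SOX9 among its strongest m6A decreases, so the direction holds for this peak only. SOX9 mRNA was 1.15, 1.00 and 1.24 FPKM in GM and 0.798, 0.791 and 0.516 in DM (difference -0.33, SE 0.0971, limma adjusted p = 0.027). That difference was under 1.5-fold on the log2(FPKM + 1) scale but not in mean FPKM (1.13 and 0.701).

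MYMX, which encodes the microprotein that drives fusion of myoblast membranes, was the third member of the list of myogenic regulators. Its peak covered the whole annotated transcript, 255 bases in exon 1 of 1 (chr23:17726770-17727024, plus strand), in both lists. Fold enrichment was 3.61 in GM and 3.43 in DM. The mRNA was 25.4, 28.3 and 24.3 FPKM in GM and 23.4, 21.9 and 25.3 in DM, overlapping ranges, with a difference of -0.14 (SE 0.0744, limma adjusted p = 0.18). Of the 61 genes of that list tested, 8 were higher in DM and 16 lower, beside a background of 4.89% and 6.88% of all 12302 genes tested.

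Genes of the contractile apparatus were not among the hosts. Of the muscle contraction list, 43 genes had a shared pair somewhere and 0 had it in a last exon by this annotation, while 39 of 64 tested were higher in DM and 2 lower. The m6A machinery list (17 genes with a shared pair) and the sterol synthesis list (10) also had 0. Last exon hosts were 557 of the 7833 genes with any shared pair. Lists of this size would hold few hosts by that share alone, so these zeros are not read as a depletion. In the m6A machinery list 0 of 25 genes were called by limma (1 higher and 10 lower at an unadjusted p under 0.05, each under 1.5-fold on the log2(FPKM + 1) scale), and in the sterol list 16 of 24 were higher. The background for these mRNA counts was 4.89% higher and 6.88% lower of all 12302 genes tested.

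The cell cycle lists each had 1 host gene. CLSPN, the adaptor of the replication checkpoint, had its peak in exon 24 of 24, at 2.45 in GM and 3.55 in DM, and its mRNA was 2.26, 1.81 and 1.49 FPKM in GM and 0.485, 0.527 and 0.342 in DM, a fall by 0.97 (SE 0.114, limma adjusted p = 0.00028). FOXM1, the transcription factor of mitotic genes, went from 3.02 in GM, where the peak was annotated to the 3′ UTR, to 4.97 in DM in exon 10 of 10. Its mRNA was 1.94, 2.02 and 2.00 FPKM in GM and 0.133, 0.179 and 0.118 in DM, a fall by 1.39 (SE 0.0738, limma adjusted p = 3.4e-06) with no overlap. Over the lists, 31 of 56 S phase genes and 72 of 72 mitosis genes tested were lower in DM, against 6.88% of all 12302 genes tested.

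Among extracellular matrix genes, COL6A1 and COL6A2, chains of the collagen VI microfibrils around muscle fibres, were the most abundant hosts. COL6A1 mRNA was 1230, 1223 and 1323 FPKM in GM and 1301, 1352 and 1242 in DM, overlapping ranges. Its fold enrichment in exon 35 of 35 was 2.77 in GM and 1.87 in DM, a ratio just under 1.5-fold, and that of COL6A2 3.11 and 2.39. COL8A1, a short chain collagen, had a GM peak of 150 bases and a DM peak of 569 bases that shared 61, with fold enrichments of 2.09 and 1.92, and its mRNA went from 0.769, 0.914 and 0.665 FPKM to 3.87, 4.10 and 4.04, a rise of 1.49 (SE 0.0773, limma adjusted p = 3e-06). Of 63 matrix genes tested, 15 were higher and 14 lower, beside a background of 4.89% and 6.88% of all 12302 genes tested.

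Chromatin regulators among the hosts all stayed within 1.5-fold for m6A and were not called for mRNA, with 1 of the 3 higher and 1 lower at an unadjusted p under 0.05 by limma. These also had an adjusted p under 0.05 and missed the call by fold. The mRNA difference was 0.30 for ASXL3 (limma adjusted p = 0.016) and -0.21 for KDM1A (limma adjusted p = 0.0063). Without the added 1, mean FPKM of ASXL3 (0.728 in GM and 1.13 in DM) differed by over 1.5-fold. EP300, a histone acetyltransferase, had a peak of 2064 bases in exon 31 of 31 (chr5:112342790-112344853) at 7.37 in GM and 5.11 in DM, with mRNA between 11.0 and 11.3 FPKM in GM and between 11.8 and 12.3 in DM (difference 0.10, SE 0.0508, limma adjusted p = 0.16). KDM1A, a histone demethylase, had 3.14 and 2.74, and the 2 pairs of ASXL3 2.24 and 2.33, and 1.76 and 2.31. Of the 85 genes of that list tested, 4 were lower and 0 higher by limma (22 and 6 at an unadjusted p under 0.05). The cadherin list had 2 hosts, PCDHGA3 (5.44 and 11.7) and DCHS2 (7.62 and 5.32), and 2 of 20 genes tested were higher and 3 lower. For both lists the background was 4.89% higher and 6.88% lower of all 12302 genes tested.

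The mRNA level of the host genes is a measure the choice of members did not use, although the input libraries also served as the reference of the peak calls. Of the 557 genes, 393 had a mean of at least 0.5 FPKM and were tested with limma on log2(FPKM + 1) with Benjamini-Hochberg adjustment over all 12302 genes. In DM, 24 were higher (6.11%, background 4.89%) and 22 lower (5.60%, background 6.88%). The 3 DM libraries lay wholly above or below the 3 GM libraries for 198 (50.4%, background 54.1%), and the median log2 change was -0.01, against -0.05 over all genes tested. In these counts the host genes were close to the background.

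The largest fall was that of VGF, which encodes a secreted neuropeptide precursor from a single coding exon. Its mRNA was 25.3, 23.8 and 25.2 FPKM in GM and 5.30, 5.30 and 5.56 in DM, a fall by 2.01 (SE 0.0536, limma adjusted p = 2.1e-07). Its m6A peak spanned the same 1707 bases in both lists (chr25:35575058-35576764, plus strand), at 4.59 in GM and 4.99 in DM. TNFSF15, a cytokine of the TNF family, went from 2.43, 1.70 and 2.24 FPKM to 0.361, 0.500 and 0.272 (a fall by 1.18, SE 0.112, limma adjusted p = 8.5e-05), and KLHL32 fell by 1.18 as well (SE 0.101, limma adjusted p = 4.8e-05). ENSBTAG00000006815 had a difference of -1.24 but scattered libraries (10.2, 3.15 and 14.1 FPKM in GM, 1.53, 2.33 and 5.34 in DM) and was not called (SE 0.487, limma adjusted p = 0.073).

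The largest rise was that of EGR2, an early growth response transcription factor, from 1.56, 1.00 and 1.09 FPKM in GM to 3.97, 8.16 and 6.11 in DM (1.64, SE 0.206, limma adjusted p = 0.0004). HRCT1 rose by 1.36 (SE 0.202, limma adjusted p = 0.00099), C4orf54 by 1.35 (SE 0.0958, adjusted p = 1.7e-05) and BACE2, an aspartyl protease, by 1.09 (SE 0.0478, adjusted p = 1.3e-06). BACE2 was tightly measured, at 25.0, 26.0 and 26.8 FPKM in GM and 55.6, 57.3 and 56.3 in DM, with a peak of low enrichment (1.34 and 1.39).

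Some further hosts are given that were chosen after their values were seen. NOTCH2, a receptor of the Notch pathway of muscle progenitors, had mRNA of 56.7, 59.2 and 64.3 FPKM in GM and 127, 125 and 124 in DM (a rise of 1.05, SE 0.0559, limma adjusted p = 3.4e-06). Its peak of 1287 bases in exon 34 of 34 (chr3:23367286-23368572) had an almost identical enrichment, 3.48 in GM and 3.47 in DM. LRRC32, which tethers latent TGF-beta to the cell surface, showed the opposite mRNA direction, from 49.1, 54.1 and 57.3 FPKM to 25.0, 26.7 and 24.7 (a fall by 1.04, SE 0.0665, limma adjusted p = 9.5e-06), again with similar enrichment (4.63 and 4.74) over 1839 bases of exon 3 of 3. NOG, the BMP antagonist noggin, went from 2.48, 3.47 and 3.18 FPKM to 1.38, 1.59 and 1.35 (a fall by 0.72, SE 0.104, limma adjusted p = 0.00082). AEBP1, a matrix protein, rose by 0.75 (SE 0.0561, limma adjusted p = 2.3e-05) from 148, 158 and 160 FPKM to 260, 275 and 250, and RAD54L, of homologous recombination, fell by 1.15 (SE 0.0874, limma adjusted p = 2.4e-05).

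**Figure D4:**
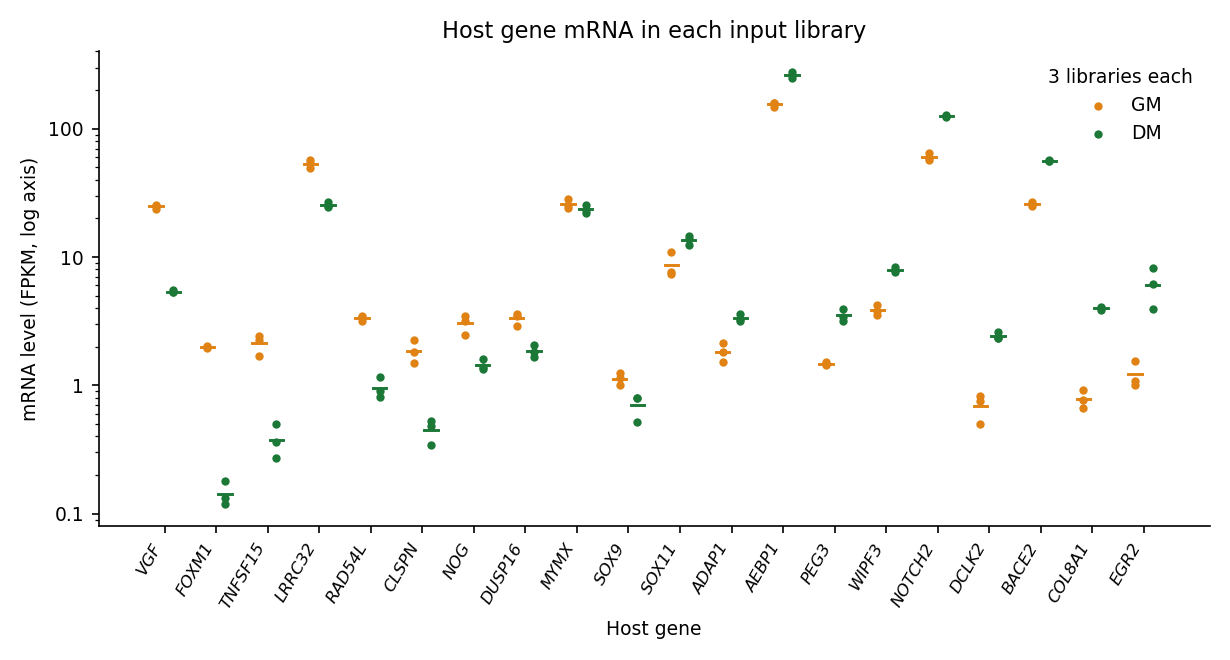
mRNA level (FPKM, log axis) of 20 host genes of shared last exon peaks in each of the 3 GM (orange) and 3 DM (green) input libraries, with bars at the group means. The groups do not overlap for any of these genes except MYMX, and SOX9 is separated but was under 1.5-fold on the log2(FPKM + 1) scale of the test.

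Changes of m6A and mRNA were set side by side for the 393 tested hosts. Of 116 genes with a pair changed over 1.5-fold, 17 (14.7%) were called for mRNA, and of the 277 with no changed pair 29 (10.5%). Over all shared pairs these were 13.2% and 10.3%. Fold enrichment was higher and mRNA lower in DM in 8 genes, lower and higher in 7, higher in both in 2 and lower in both in 1. ENSBTAG00000052346, with 1 peak higher and 1 lower, is counted under 2 of these. Over all shared pairs the counts in the same order were 107, 72, 39 and 34. Fold enrichment divides IP by input, and the input libraries also give the FPKM, so the 2 changes are not independent measurements.

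Among well matched pairs with opposite directions, EGR2 had a fold enrichment of 3.48 in GM and 1.64 in DM in exon 3 of 3 (chr28:18937027-18937086). This pair was short and weakly called, with 90 bases in GM and 60 in DM and log10 false discovery rates of -1.57 and -1.86. DCLK2, a doublecortin-like kinase, went from 8.71 to 4.32 in exon 15 of 15, the GM value lying on a step. Its mRNA was 0.501, 0.760 and 0.825 FPKM in GM and 2.59, 2.34 and 2.34 in DM (1.02, SE 0.094, limma adjusted p = 7.2e-05). WIPF3, an actin regulator of the WIP family, went from 7.62, also on a step, to 4.79 while its mRNA rose by 0.89 (SE 0.0713, limma adjusted p = 3.3e-05). ADAP1, an ARF GTPase activating protein, went from 3.04 to 1.70 and its mRNA rose by 0.63 (SE 0.0934, limma adjusted p = 0.00094). Without GM culture 2 that rise was 0.56, under 1.5-fold on the log2(FPKM + 1) scale.

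In the other direction, TNFSF15 had 2.74 in GM and 4.97 in DM with falling mRNA. DUSP16, a MAP kinase phosphatase, went from 2.64 to 4.26 in exon 6 of 6, the DM value lying on a step. DUSP16 mRNA was 3.50, 3.57 and 2.90 FPKM in GM and 2.08, 1.82 and 1.66 in DM. Its fall by 0.60 (SE 0.0906, limma adjusted p = 0.0011) came out at -0.57 without GM culture 1, -0.56 without GM culture 2, -0.55 without DM culture 3 and -0.55 with median-ratio size factors, each under 1.5-fold on the log2(FPKM + 1) scale. ENSBTAG00000032831, intronless and at 42.4, 35.5 and 30.9 FPKM in GM and 21.3, 17.7 and 25.3 in DM, went from 1.71 to 3.10. PEG3 and ENSBTAG00000049042 were higher in both measures, with PEG3 mRNA at 1.47, 1.53 and 1.43 FPKM in GM and 3.38, 3.96 and 3.17 in DM (0.86, SE 0.0824, limma adjusted p = 8.8e-05). The rise of ENSBTAG00000049042 (0.59, SE 0.076, limma adjusted p = 0.00047) was under 1.5-fold on the same scale without GM culture 1, GM culture 2 or DM culture 1.

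**Figure D5:**
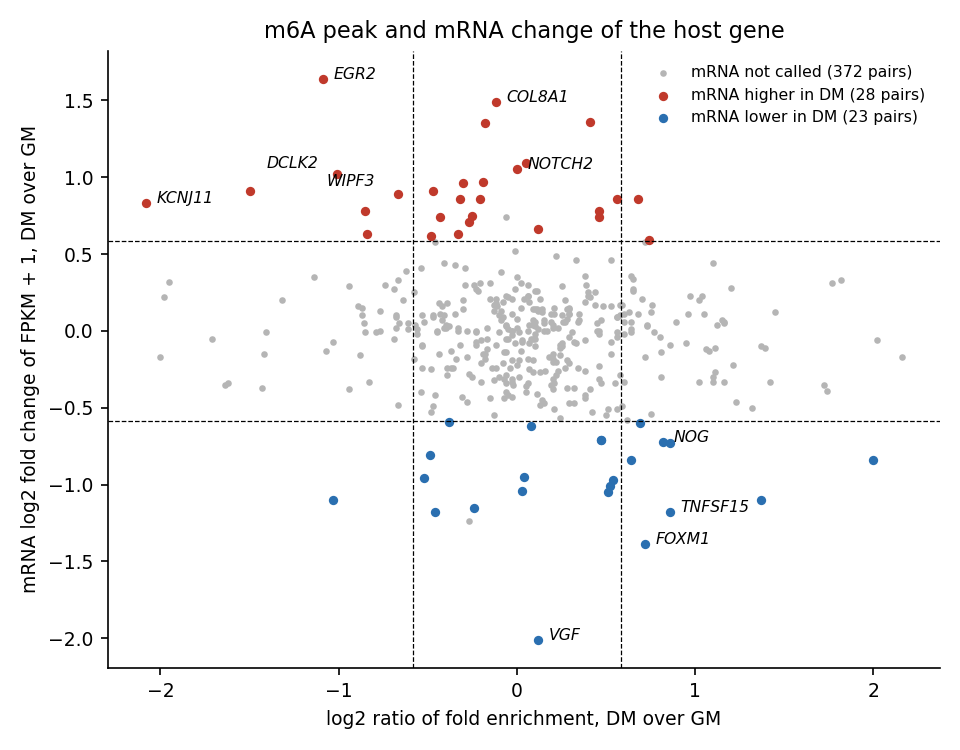
log2 ratio of fold enrichment (x axis) and log2 fold change of FPKM + 1 (y axis), both DM over GM, for the last exon pairs whose host gene was tested, with 1 point per pair. Red and blue mark host genes called higher or lower by limma, and dashed lines mark 1.5-fold. VGF, NOTCH2 and COL8A1 lie between the vertical lines, and EGR2, DCLK2 and WIPF3 left of them with higher mRNA.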

How the data were processed

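m6A-seq and matched input RNA-seq were analysed for 3 GM and 3 DM cultures (12 libraries, strand-specific by the dUTP method). The authors trimmed reads with Trimmomatic, mapped them with HISAT2 to ARS-UCD1.2, and kept uniquely mapped reads without duplicates with Sambamba. The submitters' processing notes also name cutadapt, fastp and HOMER. FPKM values of genes in the 6 input libraries were computed by the authors with StringTie. Peaks were called by the authors with exomePeak on the pooled IP and input libraries of each group, giving 19739 GM and 20790 DM peaks, and annotated with ChIPseeker, which in its usual setting gives UTR labels precedence over exons. Fold enrichment, as deposited, is a linear ratio that the authors formed from IP and input reads in the peak. The deposited score column holds the authors' unadjusted p-value of a peak, and deposited log10 columns hold that p-value and its false discovery rate. Columns of the authors' own group comparisons were not used.

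Pairs were rebuilt from the exon blocks with Python 3.11.15, pandas 2.3.3 and numpy 2.4.6, and figures were drawn with matplotlib 3.10.9. A change in m6A is a ratio over 1.5 and has no replicate error. mRNA was tested in R 4.3.3 with limma 3.58.1 (trend, no replicate block) on log2(FPKM + 1) for the 12302 genes averaging 0.5 FPKM or more, called at a Benjamini-Hochberg adjusted p under 0.05 and fold over 1.5. Fold changes of mRNA in the text are on this scale and understate those of low genes. Some genes under 1.5-fold on it, such as ARTN and SOX9, differed by over 1.5-fold in mean FPKM. The authors' counts and read totals were not used, so depth per value is unknown, and precision is the spread of 3 libraries. On simulated data for DM against GM with 12302 genes, 96.5% of 200 genes changed by 1 on the log2 scale were recovered with 3 false calls.

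Members, gene lists and tests were chosen with earlier results of these data known. Named sites are the 10 highest and 10 lowest ratios and the 10 highest geometric means among well matched pairs (named in part), up to 5 genes per combination of m6A and mRNA direction, the 5 largest mRNA rises and falls, and members of the 11 lists. Genes named for exon number, several pairs, small RNA or expression, and those at the overlap edge, were added after their values were seen. Host genes under the filter (162) or not analysed here for mRNA (2) have no test. Genes with close copies, such as zinc finger, small RNA and single-exon copies of multi-exon genes, may share reads. Peak sequence and motifs were not analysed here.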

Additional observations from a re-analysis of the deposited data

How the results depend on the processing

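Most results kept their direction and side of the threshold, but the balance of higher against lower counts did not hold under every setting. For m6A, centring on the median of all shared pairs turned 117 higher and 86 lower into 95 and 105. Of 97 recomputed values for the main counts, 78 stayed within 1.5 times (or within 0.1 on the log2 scale for the median ratio) and 19 moved. With a false discovery rate under 0.001 in both lists, 314 pairs remained, 52 of them higher in DM and 28 lower. Without exon 1 of 1 there were 371 pairs and 69 higher. A threshold of 2-fold left 56 higher and 45 lower. In alternatives chosen after the data were seen, pairs with no value on a whole step gave 58 higher and 43 lower, and host genes with at least 5 FPKM gave 156 pairs, 16 higher and 7 lower. These are smaller sets or stricter thresholds by construction. For mRNA, the main fit gave 24 host genes higher in DM and 22 lower. A pseudocount of 0.1 gave 30 higher, 38 lower and 28 changed in both m6A and mRNA. TPM gave 27 changed in both, and a 2-fold threshold gave 7 higher, 9 lower and 5 changed in both. An m6A threshold of 2-fold gave 6 changed in both. The median log2 change of all tested genes was -0.05 by FPKM and 0.06 by TPM, and that of the host genes -0.01 and 0.10. An unadjusted p gave 25 higher and 23 lower.

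Leaving out 1 library at a time gave 22 to 26 host genes higher and 21 to 25 lower. Lower genes outnumbered higher ones without GM culture 1 (22 higher and 25 lower) and without GM culture 2 (22 and 23). The replicate block gave 24 higher and 22 lower. Same-numbered cultures did not deviate together (r of -0.079, -0.123 and -0.208 over 12302 genes), so the numbers were not taken as pairs. Of the 46 called host genes, 30 did not reach 2-fold, and 9 lost the call under at least 1 other setting, all 9 of them when a library was left out, and none changed sign. PTMA (-0.81) lost it under 9 settings, including the replicate block, and ENSBTAG00000035855 (-0.62) under 6, TUBB2A (-0.59) under 4, and ENSBTAG00000005140 without GM culture 1. The share of peaks with an m6A motif was not run. Peaks carry 1 value per group, and the depth behind it is unknown, so changes of enrichment cannot be set against an error.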
